A study of Mus musculus with 6 samples.

Results

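The enzymes of the pentose phosphate pathway and of nucleotide synthesis were examined in mouse lymphoma B cells labelled PRDM15 KO and in their wild type (WT) counterparts. The 31 genes were taken by symbol from a list of pathway members, and all 31 were present among the 21448 genes of the deposited table. They form 4 branches: pentose phosphate with phosphoribosyl pyrophosphate synthesis (9 genes), purine (10 genes), pyrimidine (5 genes) and deoxynucleotide (7 genes).

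The cells came from primary lymphomas of E mu-Myc transgenic mice, in which an immunoglobulin heavy chain enhancer drives Myc in B lineage cells, so both groups carry the transgene. There were 3 PRDM15 KO libraries and 3 WT libraries of total RNA. Per the labels' protocols, lymphoma cells were cultured with IL7 and exposed for 24 h to 4-hydroxytamoxifen (OHT, 50 nM), which induces the deletion, or to ethanol, and were collected on day 3 after exposure. The protocol text is the same for all 6 libraries, so OHT is inferred for PRDM15 KO and ethanol for WT, and the effect of OHT and that of the deletion cannot be told apart. The labels do not tell how many mice or lymphomas gave the libraries, how old the mice were or what drives the Cre activity. The design text calls the libraries biological replicates. In fits without the replicate number, p-values rest on the spread between the libraries of a group. In fits with that number as a block, they rest on the spread of the differences within numbers.

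The pentose phosphate pathway branches off glycolysis at glucose 6-phosphate. Its oxidative arm yields NADPH and pentose phosphates, and its non-oxidative arm exchanges pentose phosphates with glycolytic intermediates in both directions. Ribose 5-phosphate is activated to phosphoribosyl pyrophosphate, on which purines are built and to which the pyrimidine ring is joined. Ribonucleotide reductase then turns ribonucleotides into deoxynucleotides, thymidylate synthase makes thymidylate, and thymidine kinase 1 recovers thymidine by salvage. MYC is known to bind and activate many of these genes in B cells, and dividing lymphoma cells draw on their products for RNA and DNA.

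Promoter windows of 3 deoxynucleotide genes are printed because Tk1 was the gene that passed the threshold when libraries were compared within replicate numbers, while Tyms and Rrm2, which serve the same thymidylate and deoxynucleotide supply, did not. They were chosen after the values were seen. Each window runs from 250 bases before to 50 bases after the annotated start, 5′ to 3′ on the gene's strand, from RefSeq on GRCm38.p6, which is not the build of the deposited table. The windows are chr11:117825965-117826264 (minus strand) for Tk1, chr5:30073576-30073875 (minus strand) for Tyms and chr12:24708004-24708303 (plus strand) for Rrm2. Capitals mark a match on either strand to CACGTG (the E-box that MYC and MAX bind), CCAAT, TTTNNCGC (a loose form of the E2F site), or ACGTG or GCGTG (the core bound by HIF factors), and ACGTG lies within CACGTG.
Tk1: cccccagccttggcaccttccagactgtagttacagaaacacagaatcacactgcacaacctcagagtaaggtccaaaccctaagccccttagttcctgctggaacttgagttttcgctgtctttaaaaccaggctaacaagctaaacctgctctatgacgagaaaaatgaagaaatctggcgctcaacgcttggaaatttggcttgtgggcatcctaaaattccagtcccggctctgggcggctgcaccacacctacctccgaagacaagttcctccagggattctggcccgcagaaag
Tyms: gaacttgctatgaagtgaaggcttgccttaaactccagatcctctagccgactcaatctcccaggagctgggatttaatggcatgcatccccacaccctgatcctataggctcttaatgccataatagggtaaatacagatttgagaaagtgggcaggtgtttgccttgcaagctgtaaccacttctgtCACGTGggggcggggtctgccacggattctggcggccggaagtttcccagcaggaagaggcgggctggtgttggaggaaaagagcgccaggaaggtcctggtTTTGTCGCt
Rrm2: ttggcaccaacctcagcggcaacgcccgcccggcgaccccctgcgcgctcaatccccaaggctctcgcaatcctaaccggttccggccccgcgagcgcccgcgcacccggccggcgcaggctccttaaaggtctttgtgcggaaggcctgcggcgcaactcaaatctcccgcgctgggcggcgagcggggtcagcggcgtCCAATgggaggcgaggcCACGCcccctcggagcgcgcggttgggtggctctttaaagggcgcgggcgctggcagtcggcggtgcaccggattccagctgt

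The Tyms window held a CACGTG and a TTTNNCGC match. The Rrm2 window held a CCAAT and, on the other strand, a GCGTG match, and the Tk1 window held none of these letter strings. Windows were found for 29 of the 31 genes, all except Pfas and Dhodh, and came to 36 because 6 genes had more than 1. CACGTG was present in 6 of these 36 windows (16.7%) and in 7.15% of all 32851 promoter windows, and TTTNNCGC in 8 (22.2%) and in 5.17%. The windows of Nme1 overlap and each holds both strings, so Nme1 counts more than once in both shares. CCAAT was present in 11 (30.6%) and in 37.4% of all windows, ACGTG in 9 (25.0%) and in 19.6%, and GCGTG in 21 (58.3%) and in 32.4%. A match of letters is a description and not a binding site, and a window without a match says only that these letters are not in it.

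Values are reads per gene scaled by the effective library size, as in CPM, and not by gene length, so they can be compared between libraries for a gene but not between genes. The libraries held 28852951 to 41204788 reads in PRDM15 KO and 38581112 to 47255421 reads in WT. A principal component with 54.6% of the variance set replicate 1 of both groups apart from the other libraries. Of 12 B cell markers, 11 were in the table and none of these was at 0, with sums of 1828 to 2396 in PRDM15 KO and 1858 to 2474 in WT. Single markers varied more, with 5 log2 changes above 0 and 6 below. Cd22 stood at 62.7, 39.3 and 24.6 in PRDM15 KO and 98.7, 125 and 56.2 in WT. Its log2 change of -1.15 did not pass blocked limma (adjusted p = 0.0713) but passed blocked DESeq2 (adjusted p = 4.58e-07). Vpreb1 was lowest in library 1 of each group, at 30.8 and 55.8, against 222.7 or more in the others. The 18 myeloid markers summed to 33.1, 2008 and 1093 in PRDM15 KO libraries 1, 2 and 3, against 53.2, 195 and 135 in WT libraries 1, 2 and 3, with Lyz2 the highest. The neutrophil genes Elane and S100a9 were at or near 0 throughout. S100a8 was also low, but stood at 0.627 and 0.308 in PRDM15 KO libraries 2 and 3, against 0.0752 or less in the other libraries. Mpo was highest in PRDM15 KO library 1, at 0.333. The 9 T and NK markers in the table summed to 7.88, 22.4 and 8.16 in PRDM15 KO and to 5.93, 2.31 and 1.69 in WT, and the 9 stromal and erythroid markers to 63.9, 56.8 and 102 against 52.3, 52.9 and 63.7, with Hba-a1 at or near 0. Nearly all of each of these last sums was the single gene Pecam1, at 61.9, 54.2 and 101 in PRDM15 KO and 50.2, 51.0 and 62.1 in WT. In such bulk libraries, fewer cells of a type and less RNA per cell cannot be told apart.

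Prdm15 (ENSMUSG00000014039) stood at 40.2, 40.9 and 39.2 in PRDM15 KO libraries 1 to 3, against 29.2, 47.3 and 41.3 in WT libraries 1 to 3. The groups overlapped and the log2 change was 0.06, so a value summed over the whole gene does not check the labels here. Myc stood at 727, 456 and 532 in PRDM15 KO and at 846, 684 and 618 in WT, with overlapping groups. Its log2 change was -0.34, and it did not pass with limma (adjusted p = 0.153 with the replicate number as a block), but it passed with DESeq2 and the same block (adjusted p = 0.0299).

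As a whole the pathway stood at nearly the same level in both groups. The summed value of the 31 genes was 7094, 7719 and 7250 in PRDM15 KO and 7370, 7463 and 7207 in WT, so the groups overlapped. That overlap depends on the scaling by effective library size. As a share of total reads the genes held 0.739%, 0.767% and 0.742% in PRDM15 KO. In WT they held 0.715%, 0.734% and 0.713%, so on that scale PRDM15 KO was slightly higher without overlap. The median log2 change over the 31 genes was 0.02, beside -0.03 over all 10533 genes tested (those with a mean value of at least 1, which all 31 reached). The change lay below 0.5 in size for 30 of the 31 genes (96.8%), against 92.4% of all tested genes, and Tk1 was the exception. With limma on log2(value + 1), 0 of the 31 genes passed an adjusted p of 0.05 when the replicate number was left out, and 3 reached an unadjusted p under 0.05, beside 4.06% of all tested genes. The same fit called 1 gene of 10533, lower in PRDM15 KO (0.00949%).

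Libraries with the same replicate number deviated together from their group means, which is why the comparison within numbers is given beside the first. With the number as a block, limma called 1 of the 31 genes, Tk1, against 0.873% of all tested genes (0.741% lower in PRDM15 KO, 0.133% higher). edgeR's quasi-likelihood test with the block called the same gene, with 0.37% of all genes called (0.323% lower, 0.0475% higher). DESeq2 with the block called Tk1 and Tkt lower and Taldo1 higher, with 7.01% of all genes called (3.99% lower, 3.02% higher), so 3 of 31 stood near that background. DESeq2 without the block called 0 of the 31 and 1.04% of all genes (0.75% lower, 0.294% higher), and edgeR without it called 0 of the 31 and 0% of all genes, with 582 genes at an unadjusted p under 0.05.

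**Figure D1:**
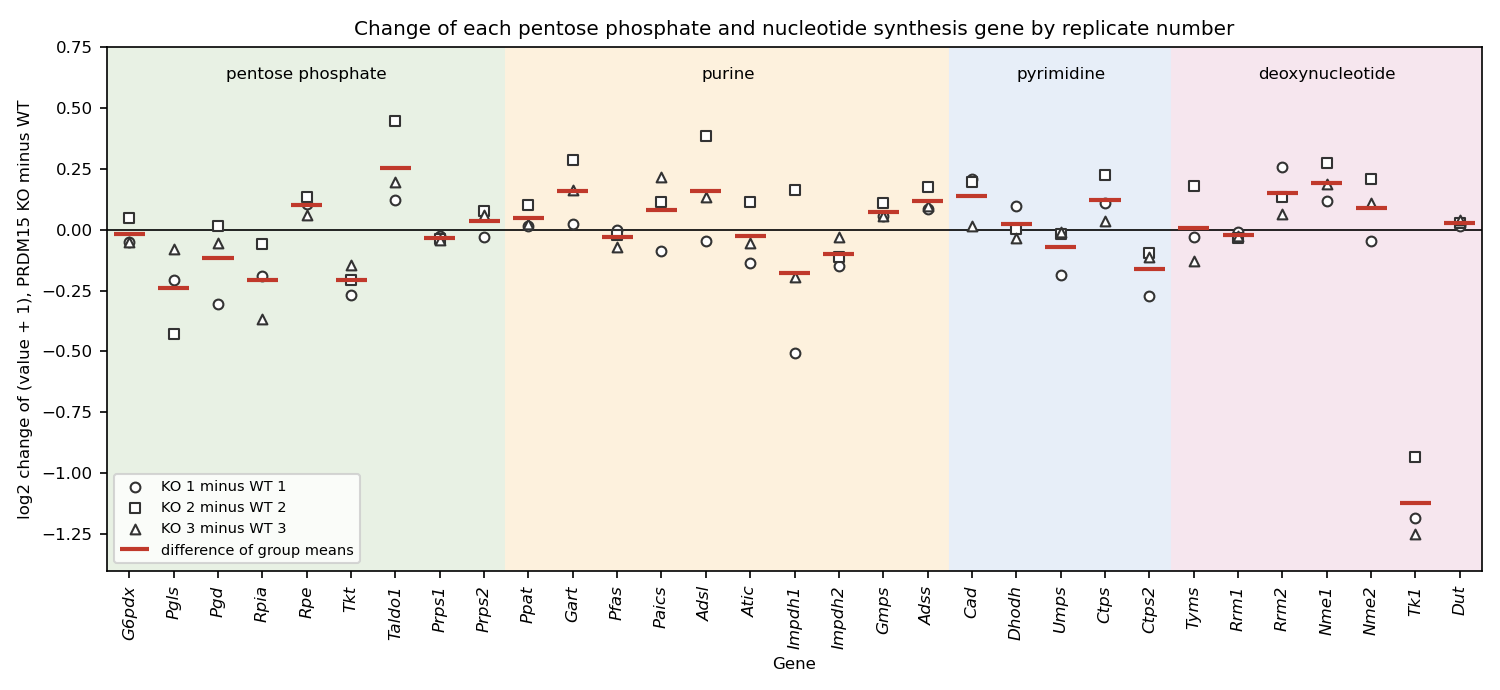
Log2 change of (value + 1), PRDM15 KO minus WT, for each of the 31 genes within replicate numbers 1 (circles), 2 (squares) and 3 (triangles), with a red bar at the difference of group means. The bars of 30 genes lie between -0.24 and 0.25, and that of Tk1 lies at -1.12.

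The precision of the libraries bounds most of these changes. In the blocked limma fit, the 95% interval of the log2 change lay within 0.5 of 0 for 28 of the 31 genes (90.3%), against 73.3% of all tested genes, and the exceptions were Tk1, Impdh1 (-0.51 to 0.15) and Nme2 (-0.38 to 0.56). Without the block the interval lay within 0.5 of 0 for 21 genes and within 1 of 0 for 30.

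In the deoxynucleotide branch, Tk1 transcripts were lower in PRDM15 KO while the genes for the other routes to thymidylate and deoxynucleotides kept close to WT levels. Tk1 (ENSMUSG00000025574) encodes the cytosolic thymidine kinase that phosphorylates salvaged thymidine in dividing cells. It stood at 26.2, 33.4 and 16.9 in PRDM15 KO libraries 1, 2 and 3, against 60.8, 64.7 and 41.5 in WT libraries 1, 2 and 3. The highest PRDM15 KO library lay below the lowest WT library, and library 3 was the lowest of each group. The reads behind these values numbered 787, 1333 and 711 in PRDM15 KO and 2276, 2581 and 1940 in WT.

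Tk1 averaged 25.5 ± 8.32 in PRDM15 KO and 55.7 ± 12.4 in WT (SD, n = 3 each), a ratio of means of 0.458. The log2 change was -1.12 with a 95% interval of -1.33 to -0.91 in the blocked limma fit and -1.82 to -0.43 without the block. Within replicate numbers 1, 2 and 3 it was -1.19, -0.93 and -1.25. Tk1 fell by limma with the replicate number as a block (adjusted p = 0.0255), by edgeR with the block (adjusted p = 0.0269) and by DESeq2 with the block (adjusted p = 1.31e-18), but not by limma without it (adjusted p = 0.884). An exact two-sided permutation test over the 6 libraries gave p = 0.1, the smallest that 3 against 3 allows. By blocked p it ranked 13 among the 10533 genes, and by the size of its fall it ranked 52.

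The call in Tk1 rests on the block and was lost in blocked fits without number 2 or number 3, whereas its size and direction held. In blocked limma fits without 1 replicate number, the adjusted p of Tk1 was 0.000694 without number 1, 0.109 without number 2 and 0.155 without number 3. The count of calls over all tested genes also differed widely between these fits and was highest without number 1, as given in the closing section. These p-values therefore do not show a dependence particular to Tk1. Over 22 alternatives the log2 change of Tk1 ran from -1.34 to -0.86 and never took the other sign. Without PRDM15 KO libraries 2 and 3, the libraries with the highest myeloid marker sums, it was -1.03. That fit sets PRDM15 KO library 1 against all WT libraries without the block.

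Genes beside Tk1 on the chromosome stayed closer to WT and did not pass limma's blocked test. Afmid, which starts head to head with Tk1 and overlaps it on the other strand, so that reads from the overlap may be miscounted if strand was not used, stood at 4.06, 4.27 and 3.30 in PRDM15 KO and at 3.87, 4.44 and 3.83 in WT. Its log2 change was -0.05, and those of Birc5 and Syngr2, which also lie beside Tk1, were -0.08 and 0.20. Of the 50-base stretches of Tk1 transcripts, 1.43% occur in another gene.

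Thymidylate is also made from dUMP by thymidylate synthase, the product of Tyms. Tyms stood at 84.7, 93.1 and 53.2 in PRDM15 KO and at 86.4, 82.2 and 58.2 in WT, with overlapping groups and a log2 change of 0.01 (95% interval -0.18 to 0.20 in the blocked limma fit). Library 3 was the lowest of each group here as well. The ratio of Tk1 to Tyms was 0.309, 0.359 and 0.317 in PRDM15 KO, against 0.704, 0.787 and 0.713 in WT. These ratios did not overlap and differed by -1.16 on the log2 scale, and the ratio of Tk1 to Rrm2 differed by -1.31 and that of Tk1 to Dut by -1.18 (exact two-sided permutation p = 0.1 for each of the 3, the smallest possible). Since Tyms, Rrm2 and Dut changed little, the ratios mainly restate the change of Tk1 and are no separate evidence of it.

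Ribonucleotide reductase is built of a large subunit, Rrm1, and a small subunit that rises in S phase, Rrm2. Rrm1 stood at 619, 627 and 686 in PRDM15 KO and at 623, 642 and 698 in WT, a log2 change of -0.02. Rrm2 stood at 415, 356 and 372 in PRDM15 KO and at 346, 325 and 357 in WT, a log2 change of 0.15 with limma's blocked adjusted p at 0.237. Rrm2 was higher in PRDM15 KO within each of the 3 numbers, but library 2 of PRDM15 KO lay just below library 3 of WT. Dut, the dUTPase that keeps uracil out of DNA and supplies dUMP, stood at 268, 299 and 360 in PRDM15 KO and at 265, 294 and 350 in WT. Its log2 change was 0.03, within the narrow interval of -0.09 to 0.15.

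Nucleoside diphosphate kinases put the last phosphate on nucleotides and deoxynucleotides. Nme1 stood at 99.4, 101 and 98.3 in PRDM15 KO, against 91.5, 83.6 and 86.3 in WT. The groups did not overlap, with a log2 change of 0.19 that did not pass with limma (blocked adjusted p = 0.167) or with blocked DESeq2 (adjusted p = 0.0584). Nme2 was listed at 1.26, 1.05 and 1.14 in PRDM15 KO and at 1.34, 0.777 and 0.984 in WT, which rests on 31 to 50 reads a library. Both values are uncertain, because a read-through gene shares exons with Nme1 and Nme2, and 47.0% of the 50-base stretches of Nme2 occur in other genes.

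**Figure D2:**
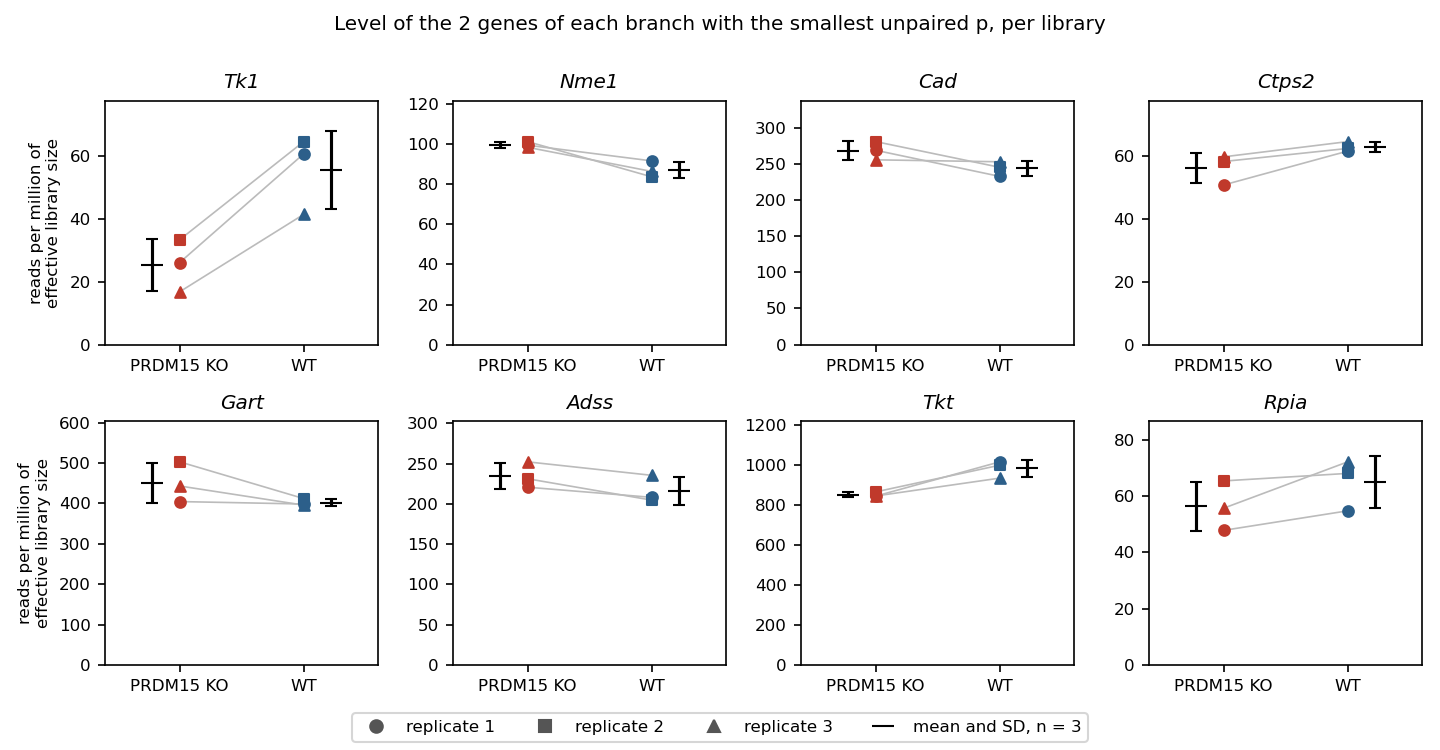
Reads scaled by effective library size (CPM) in each library, PRDM15 KO in red and WT in blue with lines joining equal replicate numbers, for the 2 genes of each branch with the smallest unblocked p, beside the mean and SD (n = 3). Tk1 was at 33.4 or lower in each PRDM15 KO library and at 41.5 or higher in each WT library, and Gart, Adss and Rpia overlapped between groups.

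In the pentose phosphate branch the summed value was 1661, 1957 and 1931 in PRDM15 KO and 1871, 2055 and 2014 in WT, lower in PRDM15 KO within each number but with overlapping groups. The largest part of this sum was the single gene Tkt, at 845, 866 and 846 in PRDM15 KO and 1017, 999.7 and 935 in WT. The lower sum within each number is therefore not a trait of the branch as a whole. The median log2 change over the 9 genes was -0.04, with 3 genes above 0 and 6 below, and scaling all libraries to equal totals brought the median to 0.02. No gene of the branch passed with limma or edgeR, with or without the block, and at an unadjusted p under 0.05 limma gave 1 gene without the block and 4 with it, beside 4.06% and 21% of all tested genes.

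The oxidative arm showed small differences. G6pdx, the glucose 6-phosphate dehydrogenase that commits carbon to the pathway and makes NADPH, stood at 68.2, 61.2 and 48.4 in PRDM15 KO and at 70.6, 59.1 and 50.2 in WT. Its log2 change was -0.02, and 98.5% of its sum of squares lay between replicate numbers. Pgls, the lactonase of the next step, stood at 124, 144 and 225 in PRDM15 KO and at 143, 194 and 238 in WT. It was lower in PRDM15 KO within each number, with a log2 change of -0.24 that did not pass (limma with the block, adjusted p = 0.196), and 18.9% of its 50-base stretches occur in another gene, mainly the overlapping Fam129c. Pgd, the second enzyme that makes NADPH, stood at 96.1, 106 and 97.7 in PRDM15 KO and at 119, 104 and 102 in WT, a log2 change of -0.11.

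In the non-oxidative arm, the changes of both carbon-transferring enzymes lay on opposite sides of 0 and did not pass limma's threshold. Tkt, the transketolase, stood at 845, 866 and 846 in PRDM15 KO, against 1017, 999.7 and 935 in WT. The groups did not overlap, and its log2 change was -0.21 (limma with the block, adjusted p = 0.160). Blocked DESeq2 called it lower (adjusted p = 0.0236).

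Taldo1, the transaldolase, stood at 155, 246 and 228 in PRDM15 KO and at 142, 181 and 199 in WT. It was higher in PRDM15 KO within numbers 1, 2 and 3 by 0.12, 0.44 and 0.20 on the log2 scale, and the mean log2 change of 0.25 did not pass with limma (blocked adjusted p = 0.173) but passed with blocked DESeq2 (adjusted p = 0.0172). The groups overlapped. The largest of its differences lay in the pair with the largest difference in myeloid markers (summed 2008 in PRDM15 KO against 195 in WT). The part of these markers in the Taldo1 difference was not tested. Without PRDM15 KO libraries 2 and 3, the log2 change of Taldo1 was -0.15. That fit sets PRDM15 KO library 1 against all 3 WT libraries without the block. Library 1 was the lowest of each group, and within number 1 the change was 0.12. The ratio of Taldo1 to Tkt was 0.183, 0.284 and 0.270 in PRDM15 KO and 0.140, 0.181 and 0.213 in WT, with overlapping groups (exact two-sided permutation p = 0.2).

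Rpia makes ribose 5-phosphate from ribulose 5-phosphate. It stood at 47.8, 65.4 and 55.7 in PRDM15 KO and at 54.7, 68.0 and 72.1 in WT, lower in PRDM15 KO within each number, with overlapping groups. Its log2 change of -0.21 did not pass (limma with the block, adjusted p = 0.222). Rpe, the epimerase acting on the same sugar, stood at 78.8, 90.2 and 93.8 in PRDM15 KO and at 73.2, 82.2 and 89.8 in WT, a log2 change of 0.10.

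The synthetases of phosphoribosyl pyrophosphate varied with the replicate number far more than with the group. Prps2 stood at 141, 270.5 and 244 in PRDM15 KO and at 144, 256 and 234 in WT, so library 1 was the lowest of each group. Replicate numbers held 99.4% of the sum of squares of Prps2, and its log2 change was 0.04 (95% interval -0.09 to 0.16 in the blocked limma fit). Prps1 stood at 105, 107 and 92.4 in PRDM15 KO and at 107, 110.2 and 95.1 in WT, without that low library. Its log2 change was -0.04, and 9.93% of its 50-base stretches occur in other genes, mainly its relative Prps1l3.

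In the purine branch, which assembles inosine monophosphate and converts it to AMP and GMP, no gene passed with limma, edgeR or DESeq2, with or without the block, and 0 reached an unadjusted p under 0.05 with limma. The summed value was 3124, 3446 and 2971 in PRDM15 KO and 3242, 3169 and 2842 in WT. The median log2 change was 0.06, with 6 genes above 0 and 4 below.

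The early steps stood close to WT. Ppat, the committing amidotransferase, stood at 262, 285 and 243 in PRDM15 KO and at 259, 265 and 239 in WT, a log2 change of 0.05. Gart, which carries 3 activities of the pathway, stood at 404, 503 and 443 in PRDM15 KO and at 398, 412 and 396 in WT. It was higher in PRDM15 KO within each number, by 0.02, 0.29 and 0.16 on the log2 scale in numbers 1, 2 and 3, and the mean of 0.16 did not pass (limma with the block, adjusted p = 0.265). Pfas, Paics and Atic, enzymes of the steps before and after, had log2 changes of -0.03, 0.08 and -0.03. Ppat and Paics overlap on opposite strands, so their values are uncertain if strand was not used in counting. The same holds for G6pdx, Rpe, Gart, Impdh2 and Umps, which each overlap another gene on the opposite strand.

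Adsl acts both in inosine monophosphate synthesis and in the step to AMP. It stood at 213, 309.8 and 247 in PRDM15 KO and at 220.1, 237 and 226 in WT, where library 2 of PRDM15 KO was the highest and the log2 change was 0.16. Adss, which starts the branch to AMP, stood at 221, 231 and 252 in PRDM15 KO and at 208, 205 and 235 in WT. It was higher in PRDM15 KO within each number, with overlapping groups and a log2 change of 0.12 that did not pass (limma with the block, adjusted p = 0.254).

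The branch to GMP held Impdh1, whose highest library was 2.33 times its lowest, next after Tk1 with 3.84 times among the 31 genes. Impdh1, an inosine monophosphate dehydrogenase, stood at 50.9, 119 and 80.6 in PRDM15 KO and at 72.7, 106 and 92.4 in WT. Its pairs differed in sign, with log2 changes of -0.51, 0.16 and -0.20 within numbers 1, 2 and 3. The order of its pairs, lowest in 1 and highest in 2, is also that of the myeloid markers, and the part of those markers was not tested. The mean log2 change of -0.18 became -0.80 without PRDM15 KO libraries 2 and 3. That fit sets PRDM15 KO library 1 against all WT libraries without the block, and library 1 was the lowest of each group. Impdh2, the isoform known to rise in proliferating cells, stood at 456, 445 and 354 in PRDM15 KO and at 506, 482 and 361 in WT, a log2 change of -0.10, and 39.3% of its 50-base stretches occur in a pseudogene. Gmps, which makes GMP, had a log2 change of 0.07.

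Pyrimidine synthesis also held no gene past the threshold with limma, edgeR or DESeq2, and limma with the block gave 1 of the 5 genes, Ctps2, at an unadjusted p under 0.05, beside 21% of all tested genes. Cad, the protein with the first 3 activities of the pathway and a known MYC target, stood at 269, 281 and 255 in PRDM15 KO, against 233, 245 and 253 in WT. The groups did not overlap, although library 3 of PRDM15 KO lay just above library 3 of WT, and the log2 change of 0.14 did not pass (limma with the block, adjusted p = 0.268). Dhodh, the mitochondrial dehydrogenase, and Umps, which makes UMP, had log2 changes of 0.02 and -0.07.

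The changes of the CTP synthases, which make CTP from UTP, lay on opposite sides of 0. Ctps2 stood at 50.8, 58.3 and 59.8 in PRDM15 KO, against 61.6, 62.4 and 64.6 in WT, without overlap and with a log2 change of -0.16 (limma with the block, adjusted p = 0.235). Ctps stood at 226, 199.6 and 196 in PRDM15 KO and at 209, 171 and 191 in WT, with overlapping groups and a log2 change of 0.12. Their ratio, Ctps2 over Ctps, was 0.225, 0.292 and 0.305 in PRDM15 KO and 0.294, 0.366 and 0.338 in WT (p = 0.2 by an exact two-sided permutation test that cannot go below 0.1). It was lower in PRDM15 KO within each of the 3 numbers, with overlapping groups.

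Across the 4 branches, groups that did not overlap were found for 5 of the 31 genes, beside 9.5% of all tested genes. Cad and Nme1 were higher in PRDM15 KO in all libraries, beside 3.21% of all tested genes, and Tk1, Tkt and Ctps2 were lower, beside 6.29%. Within replicate numbers, 11 genes were higher in PRDM15 KO in all 3 and 10 lower, beside 16.7% and 29.9% of all genes.

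The replicate number accounted for more of the sum of squares than the group did in 23 of the 31 genes (74.2%), beside 83.1% of all tested genes. The median share was 73.4% for the number and 12.2% for the group over the 31 genes, and 74.5% and 9.56% over all genes. The group held its largest shares in Tkt (87.7%), Nme1 (85.3%), Tk1 (73.2%), Cad (63.7%) and Ctps2 (53.8%). The number held nearly everything in Prps2 (99.4%), Dut (99.3%) and G6pdx (98.5%). The pairs ran in the order of the myeloid marker change, lowest in 1 and highest in 2, for 12 of the 31 genes (38.7%) and 28.4% of all genes.

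**Figure D3:**
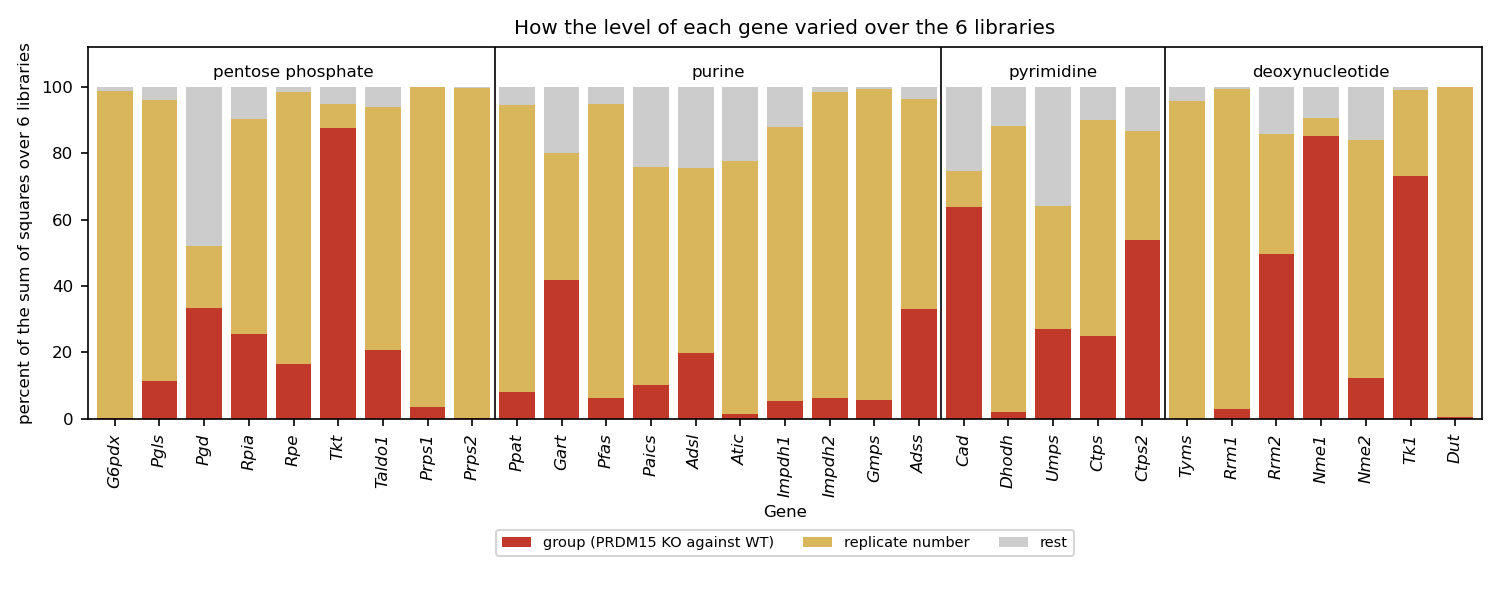
Percent of the sum of squares of log2(value + 1) over the 6 libraries held by the group (red), the replicate number (yellow) and the rest (grey) for each of the 31 genes. The group takes 87.7% in Tkt and 73.2% in Tk1, while the number takes 99.4% in Prps2.

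Genes around the pathway were compared with the same fit. In the salvage, breakdown, side branch and folate lists, 0 genes passed limma's blocked test, and 4, 3, 2 and 4 reached an unadjusted p under 0.05 there, beside 21% of all tested genes. DESeq2 with the block called 1, 1, 0 and 1 of them, beside 7.01% of all tested genes. Its call in the breakdown list was Samhd1, with a log2 change of 0.31 (blocked DESeq2, adjusted p = 0.0302, and blocked limma, adjusted p = 0.139). Of 28 salvage and interconversion genes, 24 were tested, with a median log2 change of -0.02. Ak4, a mitochondrial adenylate kinase, stood at 2.66, 9.01 and 16.4 in PRDM15 KO, against 26.6, 31.03 and 32.7 in WT. The groups did not overlap, and its log2 change of -1.85 did not pass with limma (blocked adjusted p = 0.110) but passed with blocked DESeq2 (adjusted p = 0.0255). Nme7 had a log2 change of -0.33 (limma with the block, adjusted p = 0.135). The mitochondrial thymidine kinase Tk2 stood at 11.5, 14.5 and 13.8 in PRDM15 KO and at 13.2, 12.3 and 13.5 in WT, a log2 change of 0.02, and was named for its tie to Tk1 after its values were seen.

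Among nucleotide breakdown and pool control genes, 17 of 19 were tested, with a median log2 change of 0.01. Xdh, the xanthine dehydrogenase of purine breakdown, stood at 0.699, 26.6 and 12.3 in PRDM15 KO and at 1.28, 2.63 and 1.18 in WT. Its high libraries were those with the highest myeloid sums, and the part of these cells was not tested. Its log2 change was 1.70 and did not pass (limma with the block, adjusted p = 0.241), and Dctpp1, a pyrophosphatase of the deoxynucleotide pool, had a log2 change of -0.19 (adjusted p = 0.263 in the same limma fit).

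Of 11 genes on side branches, 8 were tested, with a median log2 change of 0.05. Adssl1, the muscle isoform of adenylosuccinate synthase, had a log2 change of -0.50 (limma with the block, adjusted p = 0.143), and Prpsap1, a partner of the phosphoribosyl pyrophosphate synthetases, one of 0.14 (adjusted p = 0.286 in the same limma fit). Of 15 folate genes, which supply carbon units to purines and thymidylate, 13 were tested, with a median of 0.05. Shmt2, the mitochondrial serine hydroxymethyltransferase, had a log2 change of -0.31 (limma with the block, adjusted p = 0.221).

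A list of 33 S phase genes served to set Tk1 beside DNA replication, since Tk1 is itself an S phase gene. None passed limma with the block, edgeR or DESeq2 with the block, and the median log2 change was -0.02. With blocked limma, 4 reached an unadjusted p under 0.05, beside 21% of all tested genes. The log2 change of Ccne1, a cyclin of S phase entry, was 0.26, and that of Pola1, a DNA polymerase subunit, was -0.20, which were the lowest unblocked p-values of the list. All 33 lay within 0.5 of 0, while Tk1 lay at -1.12.

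Glycolysis, which shares glucose 6-phosphate with the pentose phosphate pathway, differed far more. Of 15 glycolysis genes, 11 fell by limma with the block (0.741% of all tested genes did), and the median log2 change was -1.20. Blocked edgeR called 6 of the 15 lower (0.323% of all tested genes) and blocked DESeq2 14 (3.99%). Without the block, DESeq2 called 12 lower (0.75% of all tested genes), and edgeR and limma called 0. Limma without the block gave 13 at an unadjusted p under 0.05, beside 4.06% of all tested genes. Pfkl, a phosphofructokinase, stood at 77.1, 109 and 73.8 in PRDM15 KO, against 339.7, 353 and 249 in WT, a log2 change of -1.85 (limma with the block, adjusted p = 0.0125). Tpi1 and Pkm, the triose phosphate isomerase and pyruvate kinase, changed by -1.78 and -1.50 (adjusted p = 0.0120 and 0.0330 in the same limma fit). The list was chosen with these results known and is no independent evidence of its direction.

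The ratio between the enzymes at the fork was set out per library. Gpi1, which takes glucose 6-phosphate down glycolysis, over G6pdx, which takes it into the pentose phosphate pathway, was 5.38, 7.38 and 7.57 in PRDM15 KO, against 16.7, 14.7 and 14.3 in WT. The ratios did not overlap and differed by -1.18 on the log2 scale, and Pfkl over G6pdx differed by -1.85 (exact two-sided permutation p = 0.1 for each, the smallest possible). Since G6pdx changed by -0.02, both mainly restate the changes of Gpi1 and Pfkl and are no separate evidence of them. These are ratios of transcript values and not of enzyme activity or flux. G6pdx overlaps Ikbkg on the opposite strand, so its values are uncertain if strand was not used in counting.

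**Figure D4:**
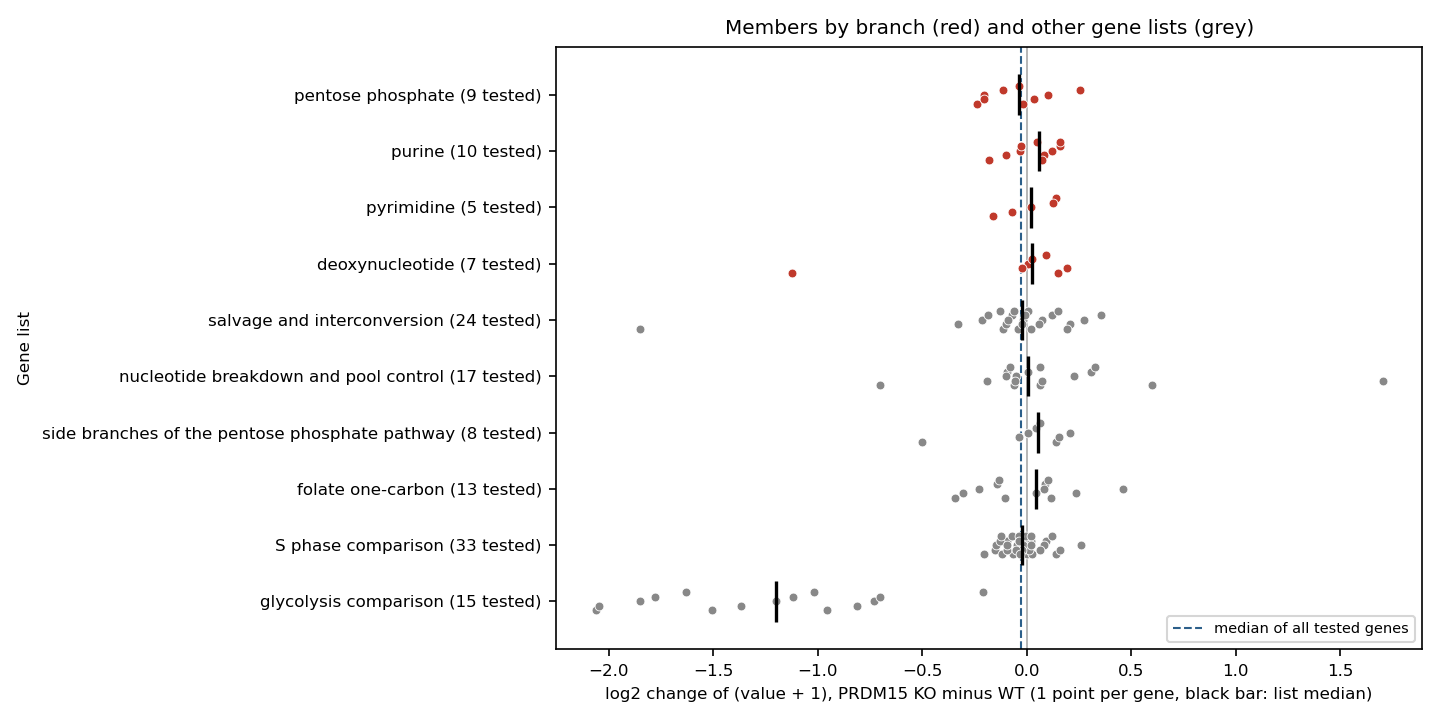
Log2 change of (value + 1), PRDM15 KO minus WT, of each tested gene in the 4 branches (red) and in other lists (grey), with a black bar at the median of each list and a dashed line at the median of all tested genes. The branch medians lie between -0.04 and 0.06, and that of glycolysis lies at -1.20.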

How the data were processed

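Total RNA of 6 libraries was sequenced, 3 PRDM15 KO and 3 WT, from directional libraries per the labels' protocols. Build mm9 and the tools STAR 2.4.2a, HTSeq, edgeR and CASAVA appear in the submitters' processing notes, without role or order. For the gene annotation and the strand of counting: not given in the sources used here. The deposited table calls its values FPKM, but the values themselves show a signal in which each library has a single step for all genes: reads divided by effective library size (0.970 to 1.04 times total reads), without division by length. Whole reads were recovered for 100% of values within 0.01 reads.

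The 10533 genes whose mean value reached 1 (919 had no read) were tested as log2(value + 1), which understates changes of low genes, with limma 3.58.1 (trended prior, two-sided, Benjamini-Hochberg, threshold 0.05; R 4.3.3), without the replicate number. Blocked limma, edgeR 4.0.16 and DESeq2 1.42.0 on recovered reads, other pseudocounts, filters and scalings, and left-out libraries were alternatives. The replicate numbers were taken to pair the libraries because deviations from group means correlated at 0.73, 0.73 and 0.84 between equal numbers. "Rose" and "fell" require an adjusted p under 0.05 in limma with or without the block. No 2 libraries of a group agreed within counting noise (chi-square over degrees of freedom 68.1 or more). Fits were tested on simulated data. The genes and lists were chosen with earlier results of these data known. Values in every library are given for genes past the threshold, the 2 genes of each branch with the smallest unblocked p, and others. In each surrounding list, up to 3 called genes or the 2 with the smallest unblocked p are named. A gene that this rule names in the folate list is not reported here. Shared 50-base stretches and neighbours come from GENCODE M21 on GRCm38, matched by gene ID; no mm9 coordinates are printed. Figures used matplotlib 3.10.9 (Python 3.11.15).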

Additional observations from a re-analysis of the deposited data

How the results depend on the processing

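Of the 31 genes, 0 passed in the limma fit without the block; 1 passed with the replicate block, 1 with edgeR and the block, 3 with DESeq2 and the block, and 0 to 1 in blocked fits without 1 replicate number. Over all genes the count of 1 became 92 with the replicate block, 39 with edgeR and the block, 110 with DESeq2, 738 with DESeq2 and the block, and 0 with edgeR (582 at an unadjusted p under 0.05). It became 0 with a pseudocount of 0.1 (434 at an unadjusted p under 0.05) or 5 (416), without a filter on low values (791), with a minimum mean of 10 (366), with quantile normalization (431), without PRDM15 KO libraries 2 and 3 (319) and without any single library (0 in each limma fit, 234 to 722 at an unadjusted p under 0.05). It ran from 0 to 840 in blocked fits without 1 replicate number, the 840 without number 1. The pentose phosphate median became 0.019 with equal totals and -0.17 without PRDM15 KO libraries 2 and 3, and the deoxynucleotide median became 0.16 without those libraries. Leaving out 1 library at a time moved the pentose phosphate median to between -0.15 and -0.020, the purine median to between -0.021 and 0.085 and the deoxynucleotide median to between 0.010 and 0.11; the causes were not tested. Among single genes, 35 alternative values changed sign and also moved by at least the SD of the differences within replicate numbers, and 6 passed the threshold. Shifts of any size that kept their sign are not counted in the 35. Some values near 0 that were not called changed sign, such as that of G6pdx in 9 of 22 alternatives. In limma the replicate block changed no other call among the 31 genes than that of Tk1. Without PRDM15 KO libraries 2 and 3, PRDM15 KO is a single library, set against all WT libraries without the block. It is assumed to vary like WT, and the median of all genes shifted to -0.11. With 3 libraries a group, changes smaller than those called may have gone undetected, and overlapping genes are uncertain because the strand of counting is not known.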
